A study of Mus musculus with 4 samples.

Results

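Messenger RNA of the wild-type mouse uterus on gestational day 4 is described here from the 2 control libraries of a series of 4, over every gene that the deposited TPM table types as protein-coding. That gives 14935 genes of the 19991 in the TPM table and the 57186 in the count table. TPM, a measure of transcript abundance, divides a gene's read count by its length and scales each library to the same total, so that levels of different genes can be set side by side. Each library was made from whole uterus of wild-type mice, called control 1 and control 2. The other 2 libraries, from mice with Cre at the Prss29 locus and floxed Pgr, are not compared here. The labels used here give no strain, age or number of animals per library, and nothing in them says that the controls came from separate animals. Differences between the controls may therefore be technical in part. Total counts were 35149834 and 33843256, and 14004 of the genes had a mean of at least 1 TPM. Values joined by "and" are control 1 first, then control 2.

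On this day the mouse uterus passes from the progesterone-dominated state into receptivity, the short period in which a blastocyst can attach. Its wall holds a luminal epithelium, secretory glands, a stroma that later forms the decidua, and an outer muscle layer, the myometrium, with vessels and immune cells throughout. Progesterone acts through the receptor Pgr to induce the epithelial ligand Ihh, which signals to stromal Ptch1, Gli1, Nr2f2 and Hand2. Oestrogen acts through Esr1, and the nidatory oestrogen rise induces Lif in the glands, whose receptor pair Lifr and Il6st activates Stat3. In whole tissue, fewer cells of a type and less RNA per cell cannot be told apart.

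The most abundant transcripts were those of mitochondria and of the translation machinery. The cytochrome oxidase subunit mt-Co1 stood first at 21334 and 37504 TPM, mt-Cytb at 14265 and 22386 TPM and mt-Nd1 at 9924 and 14391 TPM. Among nuclear genes the elongation factor Eef1a1 led with 11235 and 9397 TPM, followed by the ribosomal stalk gene Rplp1 at 8475 and 7451 TPM and Rps3a1 at 5372 and 5639.9 TPM. Of the 20 most abundant nuclear genes, 10 encode ribosomal proteins (among them Rplp0, Rps15, Rps2, Rpl4, Rps4x, Rpl23a and Rpl17). The actin-sequestering peptide gene Tmsb4x stood at 4253 and 4135 TPM, the elongation factor Eef2 at 3069.6 and 3495 TPM, and Ptma and Tpt1 at 3032 and 3081 TPM and at 3015 and 2973 TPM. The lysosomal protease gene Ctsd stood at 2571 and 3107 TPM, Actb at 3084 and 2495 TPM, the chaperone gene Hsp90ab1 at 2549.8 and 2195 TPM, and the interferon-induced membrane gene Ifitm3 at 2213 and 2224 TPM. B2m, the light chain of class I MHC, was unequal in the controls at 1799 and 2954 TPM.

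Abundance fell off steeply with rank. The 100 genes with the highest means held 27.1% and 30.2% of protein-coding TPM, and 641 and 580 genes sufficed for 50% of it. Mitochondrially encoded genes held 7.65% and 12.4%. Of all genes 1466 had a mean of at least 100 TPM and 10002 at least 10. Acta2, Apoe and Col1a1 lay in the first 100 (ranks 33, 78 and 70), Hoxa11 and Hdc in the first 300 (ranks 193 and 257), and Ihh, Esr1 and Pgr at ranks 1008, 2517 and 3221.

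**Figure D1:**
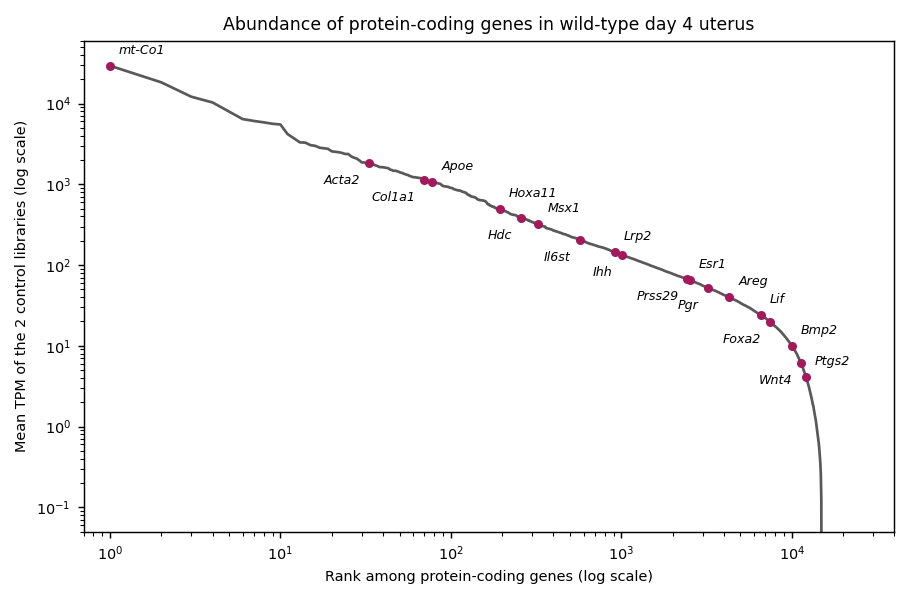
Mean TPM of both controls (log scale) against rank among the 14935 protein-coding genes (log scale, line), with genes named in the text as points. Esr1, Pgr and the gland cytokine gene Lif lie between ranks 2517 and 6585, well below structural genes such as Acta2 and Col1a1. Values under 0.05 TPM are off the plot.

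The controls differed between themselves by more than counting error, with a chi-square of 119 per degree of freedom over genes. Ratios are of counts scaled with TMM factors, with an exact binomial interval that covers counting error only, since amplified reads are not independent molecules. No test is given, because each side is 1 library. Over the 14004 genes with a mean of at least 1 TPM the median log2 ratio of control 1 over control 2 was 0.0064 and the median size of the ratio 0.274 on the log2 scale. At least 2-fold higher in control 1 were 481 genes, 3.43% of those compared, and in control 2 549 genes, 3.92%. For genes with a mean of 100 TPM or more the numbers were 52 and 39 of 1466. Across the 14004 genes, which are not independent replicates, Pearson's r of log2 TPM between the libraries was 0.955 and Spearman's rho 0.964. Over 4 classes of gene length the median log2 ratio stayed between −0.011 and 0.037.

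**Figure D2:**
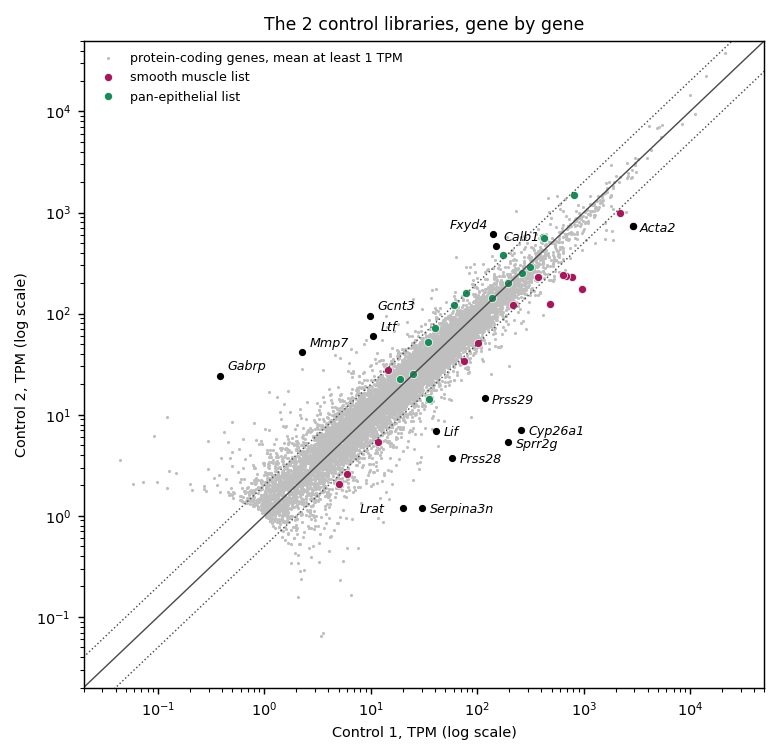
TPM in control 2 against TPM in control 1 (both log scales) for protein-coding genes with a mean of at least 1 TPM, with the diagonal and dotted lines at 2-fold. Smooth muscle genes lie below the diagonal (except Pcp4), pan-epithelial genes mostly on or above it, and black points are genes named in the text. 3 genes listed at 0 in a library cannot be drawn.

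The labelled tissue was checked against its defining markers, and genes of every layer of the uterine wall were present. The smooth muscle actin gene Acta2 led the contractile genes of the myometrium at 2902 and 731 TPM, with Tagln at 2197 and 989 TPM. Both differ widely between the controls, and control 1 is the higher. Stromal markers were led by the fibrillar collagen genes Col1a1 at 1612 and 669.7 TPM and Col3a1 at 1268 and 503 TPM, then by the matrix gene Dpt at 750.0 and 441 TPM. These too were higher in control 1. The homeobox genes Hoxa11 and Hoxa10, which the stroma needs to respond to progesterone, were about level in the controls, Hoxa11 at 490.1 and 503 TPM and Hoxa10 at 389 and 452 TPM.

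All 15 genes of the pan-epithelial list were in the table, with a median over the list of 141 TPM. The tight junction gene Cldn3 stood at 816 and 1475 TPM, Krt18 at 415 and 567 TPM and its keratin partner Krt8 at 423 and 553 TPM. Control 2 was the higher for each. Luminal cells were marked by the homeobox gene Msx1 at 211 and 427 TPM and the calcium buffer gene Calb1 at 151 and 464 TPM. Gland markers were lower, with a median of 23.6 TPM against 87.8 TPM for the luminal list. The sodium pump regulator gene Fxyd4 led at 139.9 and 611 TPM, the trypsin inhibitor gene Spink1 came next at 118 and 256 TPM, and the secreted protease gene Prss29 stood at 118 and 14.6 TPM. None of these was level between the libraries. Foxa2, the transcription factor gene that glands require, and the gland chemokine gene Cxcl15 were closer, Foxa2 at 18.3 and 21.2 TPM and Cxcl15 at 44.4 and 58.2 TPM.

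Vessel markers stood at intermediate levels. The blood endothelium list was led by the vascular cadherin gene Cdh5 at 159 and 139 TPM, Esam at 113 and 139 TPM and Plvap at 149 and 93.6 TPM. Neither control was higher for all of them. Pericytes were marked by Rgs5 at 341 and 281 TPM, Mcam at 189 and 125 TPM and the potassium channel gene Kcnj8 at 59.9 and 22.2 TPM. Among lymphatic genes the chemokine gene Ccl21a stood at 298 and 105 TPM, Pdpn at 80.5 and 29.8 TPM and the hyaluronan receptor gene Lyve1 at 24.1 and 20.4 TPM, each higher in control 1.

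Of the protein-coding immune lists, macrophage genes had the highest summed TPM, 1261 and 1688 TPM. Lysozyme (Lyz2) stood at 489 and 873 TPM and the complement genes C1qa and C1qb at 233 and 198 TPM and at 155 and 134 TPM. The class II genes Cd74 and H2-Ab1, which several antigen-presenting cells transcribe, led the dendritic cell list at 402 and 439 TPM and at 172 and 198 TPM, while Itgax stood at 11.5 and 21.4 TPM. Natural killer cells were represented by the granzyme genes Gzmc at 50.9 and 79.9 TPM and Gzmb at 55.0 and 68.3 TPM, and by Nkg7 at 24.0 and 36.1 TPM. All 3 were higher in control 2. T cell genes were low, the kinase gene Lck at 13.4 and 20.4 TPM, the regulatory T cell factor gene Foxp3 at 7.51 and 10.3 TPM and Cd3g at 2.31 and 4.31 TPM. Jchain, which joins immunoglobulin chains, stood at 117 and 124 TPM, far above the B cell gene Cd79a at 2.47 and 2.51 TPM and the plasma cell gene Mzb1 at 2.50 and 4.29 TPM. The mast cell list was led by Hdc and Gata2, which the progesterone list of the epithelium also holds, and by Kit at 26.6 and 19.7 TPM. The mast cell protease genes Mcpt4 and Cma1 stood at 28.9 and 8.74 TPM and at 23.0 and 14.6 TPM.

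Some cell types left little RNA in these libraries. The 4 neutrophil genes in the table, led by Csf3r, S100a9 and S100a8, summed to 8.22 and 16.8 TPM, and the 3 eosinophil genes, led by Ear2, Prg2 and Siglecf, to 5.87 and 12.2 TPM. Platelet genes, led by Pf4, Itga2b and Ppbp, summed to 29.8 and 21.1 TPM, and Schwann and nerve genes, with Ncam1 and Sox10 among the highest, to 24.4 and 36.6 TPM. In the adipocyte list most of the sum of 74.6 and 84.2 TPM came from Pnpla2, a lipase gene of many tissues, at 45.3 and 44.1 TPM. Lpl stood at 9.82 and 14.6 TPM, Pck1 at 13.6 and 8.96 TPM, and the adiponectin gene Adipoq had 0 and 32 counts. The ciliated cell list was led by Tppp3 at 222 and 86.2 TPM, a gene of other cells too, followed by Ccdc39 at 9.08 and 12.4 TPM and Rsph1 at 5.24 and 4.20 TPM. Foxj1, the regulator of cilia, was unequal at 0.421 and 6.69 TPM, on 12 and 192 counts. The mesothelial list was led by Krt19, a gene of uterine epithelium as well, then Wt1 at 67.9 and 60.0 TPM and Upk3b at 27.6 and 12.3 TPM.

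Markers of the embryo and of cervix and vagina were mostly at or near 0, whereas some genes of the ovary and oviduct lists were higher. Of 11 embryo and trophoblast genes 3 were in the table, of which Krt18 is also uterine, Tfap2c stood at 2.98 and 0.795 TPM and Elf5 at 0.752 and 1.79 TPM. The pluripotency gene Pou5f1 had 1 and 0 counts and Nanog 0 and 7. The trophoblast genes Cdx2, Hand1 and Prl3d1 had 0 and 0 counts each. A count of 0 allows up to 3 counts, which is 0.0853 and 0.0886 CPM (counts scaled to a common library size). The ovarian steroid synthesis gene Cyp11a1 had 20 and 10 counts and the luteinising hormone receptor gene Lhcgr 10 and 8. Other ovarian list genes were higher, Foxl2 at 26.5 and 40.5 TPM, Inha at 15.0 and 22.9 TPM and Star at 10.03 and 8.67 TPM, and Foxl2 is known from uterine stroma. The oviduct list was led by Pax8 at 52.0 and 24.3 TPM, also a uterine gene, and Ovgp1 at 26.4 and 32.6 TPM. Squamous genes of cervix and vagina that were matched by symbol, led by Krt10, Krt14 and Dsg3, summed to 16.6 and 22.2 TPM. Loricrin, which the list holds under an older symbol and this order and sum therefore leave out, had 88 and 141 counts. The basal keratin gene Krt5 had 0 and 11 counts.

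The most abundant secreted products were matrix proteins. The osteonectin gene Sparc stood at 1869 and 1076 TPM (rank 47), its relative Sparcl1 at 1100.1 and 817 TPM and the small proteoglycan gene Dcn at 475 and 365 TPM. Of 44 collagen genes, 41 were in the table and 11 had a mean of at least 100 TPM, with the microfibril gene Col6a1 (1043 and 537 TPM) next to Col1a1 and Col3a1. A further 3 lay below 1 TPM. Insulin-like growth factors and their binding proteins had a median of 255 TPM. Igfbp7 stood at 1401 and 1144 TPM, Igfbp4 at 586 and 360.2 TPM, Igfbp6 at 529 and 329.8 TPM and Igfbp3 at 186 and 97.8 TPM, all higher in control 1. The ligand gene Igf1, which oestrogen induces in the stroma, stood at 152 and 168 TPM, and Igf2 had 5 and 8 counts. Of the 7 family genes in the table, 0 reached 2-fold between the controls in either direction. Over all genes compared, 3.43% did toward control 1 and 3.92% toward control 2.

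Genes listed as protease inhibitors followed. Serpinh1, a collagen chaperone gene listed by its serpin family and not by inhibitor function, stood at 1596 and 783 TPM. The rest of the list was led by the whey acidic protein family gene Wfdc2 at 588 and 579.6 TPM. The cysteine protease inhibitor gene Cst3 stood at 459 and 378 TPM. Wfdc2 was the closest of these between the controls. Secreted serine proteases were led by the complement protease gene C1s1 at 316 and 283 TPM, Prss23 at 267 and 85.2 TPM and Htra1 at 102 and 95.3 TPM. The gland protease Prss28, encoded next to Prss29, stood at 58.1 and 3.74 TPM, and as the 2 are paralogs the counting may have split reads of shared stretches. C3, an oestrogen-induced complement gene of the epithelium, stood at 285 and 69.8 TPM. Among carriers and mucosal proteins the lipoprotein gene Apoe led at 1086 and 1054 TPM, with Lyz2 and Jchain next. The iron-binding lactoferrin gene Ltf stood at 10.5 and 59.5 TPM, the luminal mucin gene Muc1 at 63.0 and 66.3 TPM, the thyroid hormone carrier gene Ttr at 33.2 and 13.3 TPM and osteopontin (Spp1) at 36.6 and 142 TPM. Muc1 was level, whereas Ltf and Spp1 were higher in control 2 and Ttr in control 1.

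Ligands of the developmental pathways were scarcer, with a few members well above the rest of each family. Ihh, the hedgehog ligand that epithelium sends to stroma, stood at 176 and 91.7 TPM, Dhh at 2.28 and 1.79 TPM, and Shh had 0 and 4 counts. The WNT ligands Wnt5a, Wnt11 and the epithelial Wnt7a led at 107 and 131 TPM, at 69.8 and 53.5 TPM and at 58.7 and 26.8 TPM. Of 14 WNT genes in the table, 4 had a mean of at least 10 TPM, and Wnt4, the ligand of decidualisation, was not among them at 6.26 and 5.97 TPM. The secreted WNT antagonist genes Sfrp2, Dkk3 and Sfrp4 stood at 148 and 154 TPM, at 143 and 90.7 TPM and at 56.9 and 48.0 TPM, and Dkk1 had 4 and 4 counts. Antagonists were also abundant on the BMP side. Nbl1 stood at 324 and 329 TPM, Fstl1 at 372 and 265 TPM and Twsg1 at 77.8 and 63.5 TPM. The ligand genes were led by Gdf7 at 109 and 78.5 TPM and Gdf10 at 77.7 and 46.1 TPM, and the procollagen protease gene Bmp1 stood at 72.8 and 78.4 TPM. Bmp2, which the stroma needs to decidualise, stood at 12.7 and 6.97 TPM and Bmp4 at 12.8 and 17.6 TPM.

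Other growth factor and cytokine genes ranged widely in level. Amphiregulin (Areg), a progesterone target of the luminal epithelium, led the EGF family at 46.2 and 33.6 TPM, with Nrg4 at 12.6 and 19.6 TPM and Tgfa at 8.66 and 8.20 TPM. Hbegf, which the luminal epithelium induces around the blastocyst, stood at 8.39 and 5.05 TPM. Fgf1 was the highest FGF ligand gene by its mean, yet at 8.72 and 50.6 TPM this rests on control 2. Fgf18 stood at 6.21 and 11.3 TPM. Fgf11, listed by family name and not as a secreted ligand, stood at 9.26 and 8.17 TPM, and 11 of 22 FGF genes were not in the table. Lif, the gland cytokine that implantation requires, led the interleukin 6 family at 41.0 and 6.98 TPM, and this rests on control 1. Clcf1 stood at 24.8 and 20.7 TPM, Ctf1 at 10 and 30.8 TPM, and Il6 had 13 and 27 counts. The angiogenic factor genes Vegfa, Vegfb and Pdgfc stood at 128 and 119.5 TPM, at 43.2 and 56.1 TPM and at 59.5 and 35.8 TPM. Cxcl14 led the chemokines at 230.4 and 237 TPM, with Cxcl17 at 197 and 78.4 TPM. The neutrophil attractant genes Cxcl1 (7 and 12 counts) and Cxcl2 (6 and 9) were among the 9 of 36 chemokine genes not in the table.

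Genes of the main steroid receptors were nearly equal in the controls. Esr1 stood at 65.4 and 64.3 TPM and Pgr at 52.6 and 52.0 TPM. The glucocorticoid receptor gene Nr3c1 stood at 24.7 and 25.7 TPM, the mineralocorticoid receptor gene Nr3c2 at 1.79 and 1.496 TPM, and Esr2 had 0 and 3 counts. The order Esr1, Pgr, Nr3c1, Nr3c2 was the same in both libraries, with Esr1 and Pgr the nearest neighbours by ratio. Of 49 nuclear receptor genes 38 were in the table, and 21 had a mean of at least 10 TPM. The COUP-TF genes Nr2f6 and Nr2f2, the latter a stromal target of hedgehog signalling, led at 109 and 124 TPM and at 107 and 119.6 TPM, ahead of the oxysterol receptor gene Nr1h2 at 81.1 and 89.2 TPM. The clock repressor gene Nr1d1 came next at 82.5 and 85.2 TPM. Retinoid receptors were led by Rarg at 41.5 and 54.2 TPM and Rxra at 45.5 and 50.2 TPM. Of 36 genes with a mean of at least 1 TPM, 2 were at least 2-fold higher in control 1, the immediate early receptor genes Nr4a1 (30.03 and 12.3 TPM) and Nr4a3 (14.8 and 1.48 TPM). In control 2 this was 1 gene, the vitamin D receptor Vdr (1.26 and 2.99 TPM). Both counts are near the shares over all genes compared, 3.43% and 3.92%.

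**Figure D3:**
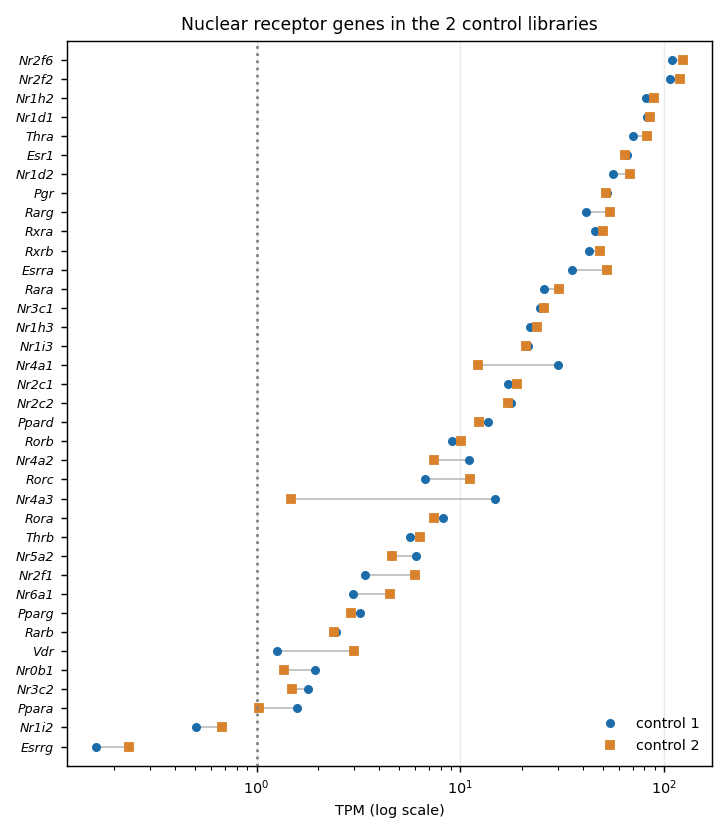
TPM (log scale) of nuclear receptor genes in the table, ordered by mean, with control 1 as circles, control 2 as squares and a dotted line at 1 TPM. The points of Esr1 and of Pgr lie on each other, while Nr4a3 (14.8 and 1.48) is the widest pair.

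Chaperone genes that keep steroid receptors ready for ligand were above the receptors. Beside Hsp90ab1, Hspa8 stood at 1253 and 896 TPM and the Pgr cochaperone gene Fkbp4 at 436 and 425 TPM. Its counterpart Fkbp5 was at 26.0 and 28.5 TPM, and the pioneer factor gene Foxa1 had 0 and 0 counts. Genes for the reception of LIF stood at unequal levels. The shared subunit gene Il6st stood at 253 and 158 TPM, the interleukin 11 receptor gene Il11ra1 at 60.1 and 67.9 TPM and Lifr at 25.0 and 15.4 TPM, and downstream Stat3 at 116 and 87.5 TPM. Il6st was thus far above Lifr in both libraries. Hedgehog reception was led by the co-receptor gene Gas1 at 269 and 159.7 TPM, the target transcription factor gene Gli1 at 124 and 148 TPM and the transducer gene Smo at 84.7 and 54.4 TPM, and the receptor gene Ptch1 stood at 65.1 and 43.9 TPM. Gli1 was higher in control 2, the other 3 in control 1.

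Of 58 receptor tyrosine kinase genes 52 were in the table, with 1 of 47 at least 2-fold higher in control 1 and 1 in control 2, near the 3.43% and 3.92% of all genes. Ptk7 led at 129 and 122 TPM, the collagen receptor gene Ddr1 stood at 124 and 101 TPM and Axl at 118 and 90.2 TPM. For the EGF family, Egfr stood at 26.9 and 22.4 TPM, its partner Erbb2 at 35.7 and 43.5 TPM, and Erbb4 had 3 and 2 counts. The TGF-beta superfamily receptors were led by Eng at 120.5 and 99.9 TPM, Tgfbr2 at 117 and 67.7 TPM and Tgfbr3 at 75.0 and 49.4 TPM, each higher in control 1. Frizzled genes did not share a direction, with Fzd6 at 93.7 and 182 TPM, Fzd2 at 99.4 and 83.4 TPM and Fzd1 at 115 and 56.4 TPM. The integrins were led by the shared beta subunit gene Itgb1 at 555 and 336 TPM, Itga5 at 99.9 and 65.5 TPM and Itgb5 at 72.7 and 84.2 TPM.

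Lpar3, the lysophosphatidic acid receptor gene that implantation timing and embryo spacing need, came first among receptors for peptides, lipids and amines at 99.8 and 179 TPM. The relaxin receptor gene Rxfp1 stood at 94.6 and 157 TPM and the parathyroid hormone receptor gene Pth1r at 102 and 127 TPM. All 3 were higher in control 2. The oxytocin receptor gene Oxtr was low at 4.54 and 3.80 TPM, and so was the prolactin receptor gene Prlr at 2.04 and 3.03 TPM. In prostaglandin metabolism, Ptges3, also an Hsp90 cochaperone gene, led at 296 and 253 TPM, then the prostacyclin synthase gene Ptgis at 85.5 and 40.7 TPM and the phospholipase gene Pla2g4a at 43.7 and 81.1 TPM. Akr1b1, which the list holds under an older symbol and its counts therefore leave out, stood at 31.2 and 20.1 TPM. Of the cyclooxygenase genes Ptgs1 stood at 34.2 and 45.0 TPM, above Ptgs2 at 6.13 and 2.12 TPM in both libraries. Chemokine receptors were led by the scavenger gene Ackr3 at 39.7 and 19.7 TPM, Ccr2 at 17.8 and 26.3 TPM and Cxcr4 at 11.6 and 21.8 TPM. In the list of water and ion channels the sodium pump subunit gene Atp1b1 was higher in control 2 at 191 and 573 TPM.

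Genes listed as progesterone targets of the epithelium were abundant in whole uterus, where other cell types may add to their RNA. Hdc, the histamine-producing enzyme gene, stood at 342 and 428 TPM, Ly6a at 512 and 212 TPM and the transcription factor gene Sox17 at 219 and 339 TPM. The endocytic receptor gene Lrp2 stood at 90.5 and 196 TPM and the calcitonin gene Calca at 10.9 and 11.9 TPM. Of 17 such genes 2 were at least 2-fold higher in control 1 and 2 in control 2, and the list had no common direction. Over all genes compared the shares were 3.43% and 3.92%. Stromal targets of progesterone and hedgehog had a median log2 ratio close to level, 0.0098 over 18 genes, which other scalings put between −0.041 and 0.038. Their members ran from −0.38 to 1.99, with 1 at least 2-fold higher in control 1 and 0 in control 2. Hand2, the stromal factor that restrains epithelial growth, stood at 162 and 131 TPM. Hoxd10, from outside the list, stood at 130.3 and 158 TPM.

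Oestrogen-responsive growth genes were led by Txnip at 306 and 357 TPM and Myc at 201 and 149 TPM, followed by Igf1. Klf4 stood at 62.6 and 58.7 TPM and Klf5, which the epithelium needs for implantation, at 29.0 and 36.5 TPM. In the receptivity list Jak1, the kinase gene below Il6st, stood at 172 and 96.2 TPM and Msx2 at 3.37 and 5.55 TPM. Decidualisation genes had a median of 45.5 TPM, and 11 of the 17 in the table had a mean of at least 10 TPM. Hoxa10 and Wnt5a were among the high ones. Low ones, besides Bmp2, Wnt4 and Ptgs2, included the cytokine gene Il11 at 1.51 and 1.10 TPM and the decidual prolactin gene Prl8a2 with 0 and 0 counts. Proliferation genes were led by the replication clamp gene Pcna at 224 and 122 TPM, Mcm7 at 79.1 and 55.8 TPM and Mcm3 at 84.7 and 41.4 TPM, and Mki67, a marker of cycling cells, stood at 21.7 and 28.5 TPM.

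**Figure D4:**
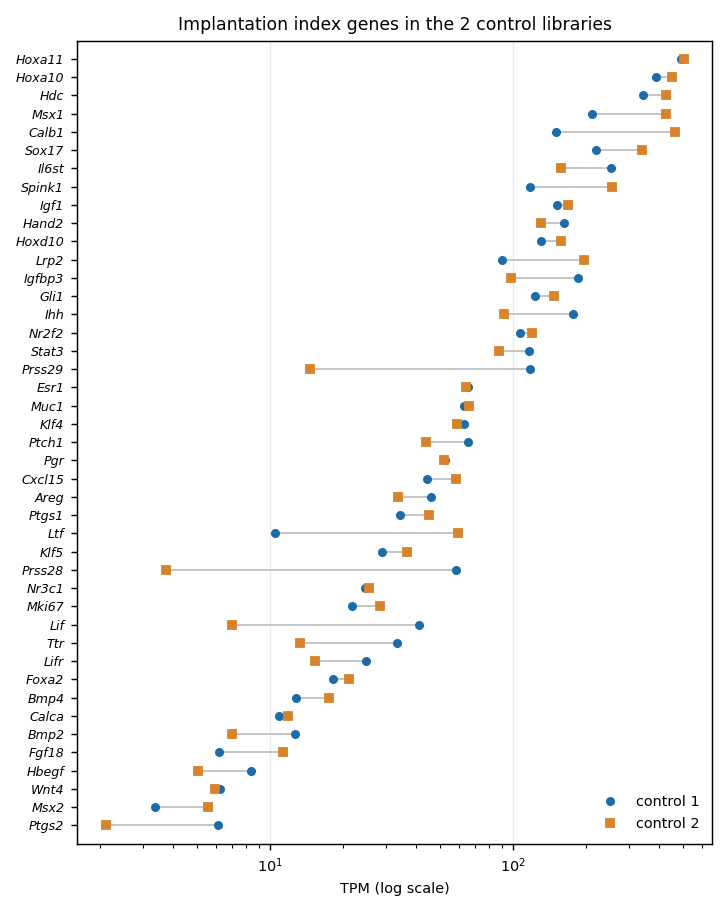
TPM (log scale) of index genes of implantation in the table, ordered by mean, with control 1 as circles and control 2 as squares. Esr1 and Hand2 lie close, whereas Prss28, Prss29, Lif, Ltf and Calb1 are far apart.

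Smooth muscle genes were higher in control 1, with Pcp4 as the exception. Of 15 compared, 11 were at least 2-fold higher in control 1 and 0 in control 2, against 3.43% and 3.92% of all genes, and the list's median log2 ratio was 1.18. Summed TPM was 9444 and 3204 TPM. Actg2 was 5.38-fold higher in control 1 (95% counting interval 5.18 to 5.597), Acta2 3.89-fold (3.83 to 3.96), the calponin gene Cnn1 3.80-fold (3.67 to 3.94) and the myosin heavy chain gene Myh11 3.28-fold (3.23 to 3.33). Pcp4, a calmodulin regulator gene, stood at 14.6 and 27.9 TPM. Skeletal muscle genes had the median 0.56. Among them Acta1, which smooth muscle can also transcribe, stood at 198 and 30.3 TPM, Tnni2 at 19.0 and 7.14 TPM and Tnnt3 at 14.1 and 11.5 TPM, while the muscle creatine kinase gene Ckm was at 0.917 and 0.408 TPM. Erythroid genes were also higher in control 1, with 3 of 5 at least 2-fold (Hbb-bs at 229 and 65.0 TPM, Hba-a1 at 166 and 47.9 TPM, Hbb-bt at 37.7 and 7.28 TPM), and their part in the other differences was not tested. Reads of the near-identical globin paralogs may have been split by the counting.

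Stromal genes did not differ alike. The most abundant fibrillar collagen genes and the procollagen enhancer gene were higher in control 1, with Col1a1 2.36-fold higher in control 1 (95% counting interval 2.34 to 2.39), Col3a1 2.47-fold and Pcolce 3.07-fold. For other markers of the stroma list, picked after their values were seen, the log2 ratio was −0.066 for Hoxa11, −0.24 for Hoxa10, −0.18 for Nr2f2, 0.20 for the growth factor receptor Pdgfra and −0.081 for Pdgfrb. The adhesion gene Vcam1 was 2.40-fold higher in control 2. Of the 18 genes of the whole stroma list, 13 lay above 0 and 5 below, the 5 being Hoxa11, Hoxa10, Nr2f2, Pdgfrb and Vcam1. Among those above 0 outside the collagens were Dpt at 0.74, Dcn at 0.35 and Hand2 at 0.28. The list's median log2 ratio was 0.42, with 4 of 18 at least 2-fold higher in control 1 and 1 in control 2. The shares over all genes compared are 3.43% and 3.92%. Of 40 matrix glycoproteins and proteoglycans, 34 had a ratio above 1 (median log2 0.65, 10 at least 2-fold). The collagen list was close to evenly split, with 21 genes above 0 and 17 below, 8 of 38 at least 2-fold higher in control 1, 6 in control 2 and a median log2 ratio of 0.14. Its summed TPM was 7509.7 and 3801 TPM, which a few abundant genes carry. All 7 lymphatic markers were on the side of control 1 (median 1.001), whereas blood endothelium was level (median 0.074). The part of muscle content in the matrix difference was not tested.

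Epithelial genes tended to the side of control 2, unevenly. The pan-epithelial list had a median log2 ratio of −0.42, with 12 of 15 genes below 0, 3 at least 2-fold higher in control 2 and 1 in control 1 (over all genes 3.43% and 3.92% toward control 1 and control 2). Krt19 was 2.19-fold higher in control 2 (95% counting interval 2.10 to 2.28), the apical membrane glycoprotein gene Prom1 2.09-fold and the epithelial transcription factor gene Elf3 2.03-fold higher there. Cdh1 and Epcam, which mark all epithelial cells, had log2 ratios of 0.075 and 0.036. Calb1 was 3.14-fold higher in control 2 (95% counting interval 3.06 to 3.22), Msx1 2.06-fold and Lrp2 2.21-fold. The luminal list had a median of −0.39, with 4 of 16 at least 2-fold higher in control 1 and 4 in control 2. Over the pan-epithelial genes that stand in no other list the median was −0.18. The luminal list shares Krt8, Krt18, and Cldn3, among others, with the pan-epithelial list.

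Within the gland list, members lay far apart in opposite directions. The neighbouring protease genes and the cytokine gene Lif were higher in control 1, with Prss28 15.2-fold higher in control 1 (95% counting interval 11.4 to 20.7), Prss29 7.93-fold (6.82 to 9.27) and Lif 5.76-fold (5.13 to 6.50). The protease gene Prss22 was 4.00-fold and Ttr 2.46-fold higher there. Fxyd4 was 4.46-fold higher in control 2 (95% counting interval 4.28 to 4.64), the progenitor factor gene Sox9 2.75-fold and Spink1 2.21-fold. Foxa2, Cxcl15 and the whey acidic protein gene Wfdc3 had log2 ratios of −0.25, −0.42 and −0.019. So 5 of 12 genes were at least 2-fold higher in control 1 and 3 in control 2, and the median of −0.13 describes few of them. The shares over all genes compared were 3.43% and 3.92%.

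**Figure D5:**
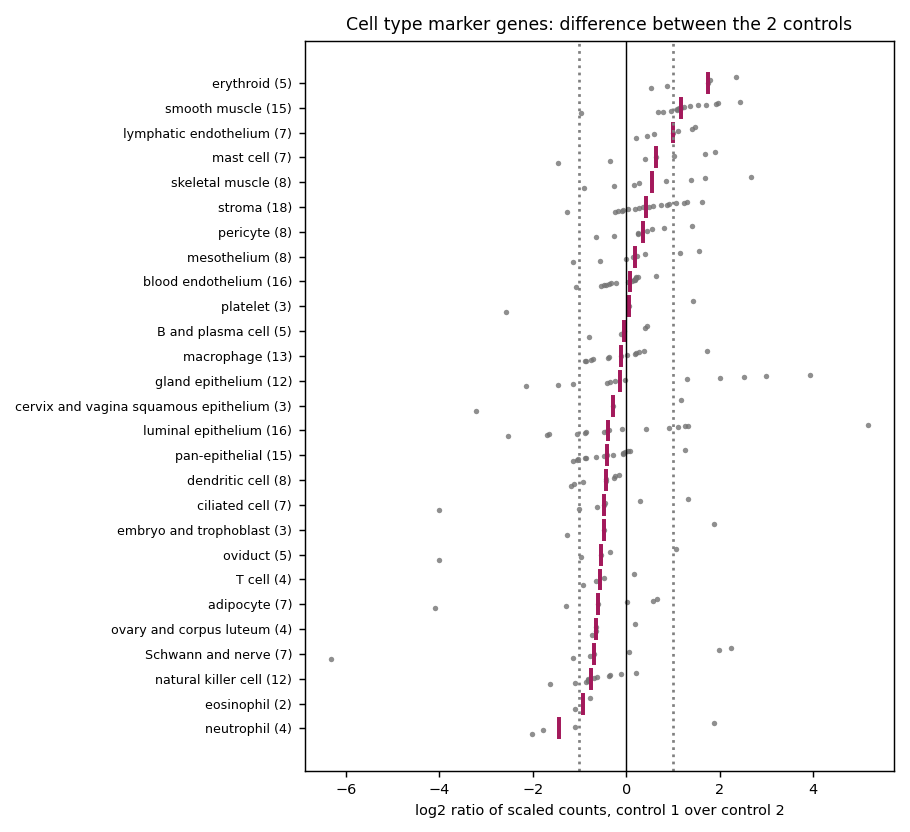
Log2 ratio of control 1 over control 2 for every cell type marker with a mean of at least 1 TPM (points), by list, with the list's median (bar), the number of genes in parentheses and dotted lines at 2-fold. Smooth muscle and lymphatic genes lie to the right, natural killer and dendritic cell genes mostly to the left, and the gland list spans both sides. The adipocyte gene Adipoq, with 0 counts in control 1, is off the plot.

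Hormone targets were among the genes with the widest folds. Cyp26a1, which breaks down retinoic acid and is a progesterone target of the luminal epithelium, stood at 259 and 7.05 TPM and was 35.99-fold higher in control 1 (95% counting interval 30.6 to 42.5). From outside the lists, Lrat, the enzyme gene that stores retinol as ester, was 16.4-fold higher in control 1 (95% counting interval 12.9 to 21.2) at 20.01 and 1.20 TPM. The oestrogen-induced cornified envelope gene Sprr2g, a member of a family of near-identical copies, stood at 197 and 5.33 TPM and was 36.2-fold higher in control 1 (95% counting interval 26.2 to 51.4). Its relative Sprr2f stood at 147 and 48.0 TPM and C3, a further oestrogen-induced gene, was 4.00-fold higher in control 1. Other members of the oestrogen-responsive secretory list went the opposite way, with Ltf 5.78-fold higher in control 2 (95% counting interval 5.19 to 6.45), the deiminase gene Padi1 3.25-fold and the water channel gene Aqp5 2.87-fold higher in control 2. The list counted 5 of 17 at least 2-fold higher in control 1 and 3 in control 2, against 3.43% and 3.92% of all genes. Ihh, the receptor subunit gene Il6st and Socs3, the feedback inhibitor of STAT3, leaned to control 1 with log2 ratios of 0.91, 0.65 and 1.35. Gata2, an epithelial progesterone target, was 2.75-fold higher in control 2.

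In signalling and secretory lists the counts are to be read against 3.43% and 3.92% of all genes at 2-fold toward control 1 and control 2. The receptivity and LIF list had 4 of 16 at least 2-fold higher in control 1, 1 in control 2 and a median log2 ratio of 0.66, while decidualisation genes had 3 of 17 at least 2-fold higher in control 1, 0 in control 2 and a median log2 ratio of 0.31. In the latter list Bmp2 stood 1.79-fold and Ptgs2 2.84-fold higher in control 1. Genes of prostaglandin synthesis and reception had 4 of 18 at least 2-fold higher in control 1, 0 in control 2 and a median log2 ratio of 0.32. Receptors for peptides, lipids and amines had 2 of 34 at least 2-fold higher in control 1, 4 in control 2 and a median log2 ratio of −0.19. Protease inhibitors were split, with 4 of 26 at least 2-fold higher in control 1, 5 in control 2 and a median log2 ratio of 0.17. Secreted serine proteases had 5 of 17 at least 2-fold higher in control 1, 2 in control 2 and a median log2 ratio of 0.13, and over genes in no other list that median was −0.095. Water and ion channel genes leaned to control 2, with 1 of 14 at least 2-fold higher in control 1, 4 in control 2 and a median log2 ratio of −0.34, among them Fxyd4 and Atp1b1 at 3.07-fold. Hedgehog receptors and transducers had 1 of 11 at least 2-fold higher in control 1, 0 in control 2 and a median log2 ratio of 0.61, although Gli1 and Ptch1, both targets of the pathway, went apart at log2 ratios of −0.29 and 0.54.

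The promoter of Cyp26a1 is shown because this gene, a known target of retinoic acid receptors, was among the 12 genes with the widest folds toward control 1 at a mean of at least 10 TPM. The window runs from 250 bases before to 50 after the start site (RefSeq, GRCm38.p6, plus strand, chr19:37697558-37697857), in a build other than the one the counts were made on. Capitals mark the match to the retinoic acid response element type known as a direct repeat, searched as AGTTCANNNNNAGTTCA on both strands and found here on the opposite strand, its first printed base 32 bases before the start.
Cyp26a1: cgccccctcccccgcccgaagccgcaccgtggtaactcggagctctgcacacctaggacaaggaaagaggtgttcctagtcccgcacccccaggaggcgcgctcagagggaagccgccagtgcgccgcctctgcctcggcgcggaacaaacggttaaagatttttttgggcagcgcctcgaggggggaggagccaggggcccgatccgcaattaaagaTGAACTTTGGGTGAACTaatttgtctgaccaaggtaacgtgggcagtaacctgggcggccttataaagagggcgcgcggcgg
Only the half-site spelling AGTTCA was searched, which is the one this Cyp26a1 window holds. The Cyp26a1 match and the share of windows rest on that choice, and other spellings and spacings of the element were not searched. Of 32851 promoter windows of the same length, 8 hold that exact motif, or 0.0244%, and 3 genes of the table are among them. Beside Cyp26a1 these are the biliverdin reductase gene Blvrb at 18.7 and 18.4 TPM and the B cell survival factor gene Tnfsf13b at 3.94 and 3.83 TPM, both nearly equal in the controls. A match describes letters, not binding.

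The neighbouring protease genes Prss28 and Prss29 were both higher in control 1, so their promoters are set side by side (RefSeq, GRCm38.p6, plus strand, chr17:25308396-25308695 and chr17:25318404-25318703, no part in capitals).
Prss28: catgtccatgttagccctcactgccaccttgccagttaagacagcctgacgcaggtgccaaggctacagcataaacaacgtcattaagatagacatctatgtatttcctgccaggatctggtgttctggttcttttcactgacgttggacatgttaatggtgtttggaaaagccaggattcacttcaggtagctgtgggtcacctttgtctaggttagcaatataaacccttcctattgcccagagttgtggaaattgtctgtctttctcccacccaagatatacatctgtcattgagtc
Prss29: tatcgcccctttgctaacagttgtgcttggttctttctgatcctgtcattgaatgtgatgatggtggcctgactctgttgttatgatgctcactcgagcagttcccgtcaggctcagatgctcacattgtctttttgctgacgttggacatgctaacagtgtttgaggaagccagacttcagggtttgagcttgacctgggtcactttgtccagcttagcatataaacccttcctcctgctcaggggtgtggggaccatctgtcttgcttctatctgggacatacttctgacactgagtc
Aligned end to end with gaps allowed, 207 bases were identical, 69% of the window length of 300. No other promoter pair was aligned, so there is no background to read this value against. Neither window holds the retinoic acid motif in the exact spelling searched above, and other spellings were not searched.

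Chemokines and inflammation genes split in the same uneven way. Counts at 2-fold below are to be read against 3.43% and 3.92% of all genes toward control 1 and control 2. The monocyte attractants Ccl7 and Ccl8 were 10.8-fold higher in control 1 (95% counting interval 6.81 to 18.0) and 9.07-fold (6.82 to 12.3), Ccl12 5.46-fold and the eosinophil attractant Ccl11 3.94-fold higher there. The acute-phase inhibitor gene Serpina3n was 25.0-fold higher in control 1 (95% counting interval 17.0 to 38.2) at 30.4 and 1.20 TPM, and the matrix protease gene Mmp3 8.17-fold. Ccl3 was 6.41-fold higher in control 2, and of 27 chemokine genes 8 were at least 2-fold higher in control 1 and 5 in control 2. Macrophage markers were split about evenly, with a median of −0.12. Mast cell genes had 3 of 7 at least 2-fold higher in control 1, 1 in control 2 and a median log2 ratio of 0.63. All 16 interferon-stimulated genes lay on the side of control 2 (median −0.41, 5 at least 2-fold, Bst2 at 406 and 496 TPM, Isg15 at 80.6 and 95.4 TPM, the RNA sensor gene Rigi at 74.8 and 80.4 TPM). So did all 14 antigen presentation genes (median −0.57 and none at 2-fold), with the class I genes H2-K1 at 594 and 1087 TPM and H2-D1 at 637 and 1036 TPM. Of 12 natural killer genes, 11 were on that side (median −0.75), among them Eomes, the transcription factor of these cells, at 2.93 and 8.89 TPM.

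Genes of cell growth and tissue handling also differed in part. Counts at 2-fold are again to be read against 3.43% and 3.92% of all genes. In the proliferation list the replication licensing genes Mcm5, Mcm4 and Mcm6 were 2.65-fold, 2.12-fold and 2.04-fold higher in control 1. The log2 ratios of Ccnb2, Plk1 and Mki67 were −0.74, −0.50 and −0.42, but these do not stand for all mitosis genes of the list. It had 12 genes above 0 and 12 below, with 4 of 24 at least 2-fold higher in control 1 and 0 in control 2. The list's median was −0.023. Of 21 immediate early genes, 19 were on the side of control 1 (median 0.51, 6 at least 2-fold), with Jund at 412 and 324 TPM and the growth response gene Egr1 at 82.7 and 29.9 TPM. Ier3, at 144 and 160.2 TPM, was 1 of the 2 on the side of control 2. Heat shock and stress genes had a median of 0.51. Of 13, 10 lay above 0 and 3 below, with 1 at least 2-fold higher in control 1. Hspa5 stood at 608 and 325 TPM, Hsp90aa1 at 518 and 314 TPM and Hspb1 at 309 and 129 TPM. Hypoxia genes had a median of 0.32, with 7 above 0, 3 below and 0 of 10 at 2-fold. Ldha stood at 638 and 394 TPM and Ndrg1, the list's widest toward control 1, at 90.6 and 46.2 TPM. Vegfa was about level at 128 and 119.5 TPM. All 13 mitochondrially encoded genes lay on the side of control 2 (median −0.70), while ribosomal protein genes were nearly level (median 0.14). The part of RNA quality in the other differences was not tested.

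Genes with a mean of at least 10 TPM and the widest folds toward control 2 were of several kinds. The GABA receptor subunit gene Gabrp stood at 0.382 and 24.4 TPM and was 65.0-fold higher in control 2 (95% counting interval 38.6 to 119). The epithelial matrix protease gene Mmp7 was 18.6-fold higher in control 2 (95% counting interval 12.9 to 27.8), the dopamine receptor gene Drd4 12.7-fold (10.1 to 16.0), the mucin-type glycosyltransferase gene Gcnt3 9.93-fold (9.02 to 10.95) and the adhesion receptor gene Adgrg7 8.64-fold (7.21 to 10.4). Transporters followed, the sodium-iodide symporter gene Slc5a5 at 3.56 and 27.5 TPM and the amino acid transporter gene Slc6a14 at 6.55 and 45.1 TPM, with the glycosyltransferase gene B3gnt5 at 5.19 and 36.6 TPM. Fgf1 was 5.92-fold higher, the catenin-family gene Arvcf 6.82-fold, BC048679 6.20-fold and the sialic acid lyase gene Npl 5.89-fold, Npl being abundant at 63.2 and 365 TPM. On the side of control 1, transport genes were the glucose transporter gene Slc5a1 at 43.2 and 4.90 TPM and the proton pump gene Atp12a at 28.5 and 2.89 TPM, next to the unnamed 1110002E22Rik at 29.2 and 3.43 TPM. Below a mean of 10 TPM, listed genes reached wide folds on few counts in control 1, as with the neural crest factor gene Sox10 (4 and 314 counts) and the protease inhibitor gene Spink12 (1 and 68 counts).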

How the data were processed

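Whole uterus RNA was read as paired ends of 150 bases from NEBNext Ultra II libraries, with base calls converted by bcl2fastq 2.17, per the labels' design text. The submitters' processing notes name Trimmomatic, STAR, featureCounts and GRCm39. Versions, annotation release and strand setting are not stated in the sources used here, so overlapping antisense genes cannot be told apart. The authors deposited raw counts per gene and a TPM table. Recomputed from the deposited counts and lengths, TPM values differed from the deposited ones by at most 3.82e-11. The TPM table holds genes with a total of at least 51 counts over all 4 libraries, so genes outside it are given in counts.

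Genes were ranked by mean TPM of both controls. For the ratio between controls, counts were scaled with TMM factors from edgeR 4.0.16 over the protein-coding genes, and a gene counted as different when its ratio reached 2-fold. The share of all genes compared that reached it is printed with the first counts of lists. The interval code was tested on simulated data. The 70 gene lists hold 1085 different genes, 911 of them found among the protein-coding genes. Named genes are the 20 most abundant, the 3 most abundant of each list, the 12 largest ratios in each direction from a mean of 10 TPM, and 46 index genes of implantation. Genes named beyond these, such as Mcm5, Vdr, Nr4a3, Sox9 and Socs3, were chosen after their values were seen. Genes and lists were chosen with earlier results of these data known. Alternatives were leaving out a library, other scalings, filters and length treatment. Some genes are not reported here by name. Promoter windows came from RefSeq (GRCm38.p6). Knockout columns served only to read how the TPM table was filtered.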

Additional observations from a re-analysis of the deposited data

Results flagged for a closer look

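Immunoglobulin constant region genes lie outside the protein-coding type and so outside the comparisons, yet they were abundant. The light chain gene Igkc had a mean of 649.5 TPM (667 and 632 TPM), the heavy chain gene of the mucosal antibody class, Igha, 410.1 TPM (393 and 427 TPM), and Ighm 15.7 TPM (12.8 and 18.6 TPM). Each was detected in both controls, above the limit that a count of 0 allows. Jchain, the protein-coding partner of Igha in secreted antibody, stood at 117 and 124 TPM in the same libraries.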

How the results depend on the processing

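With CPM, which has no division by length, 57 of the 100 most abundant genes stayed among the first 100, and these 100 places held 15.7% of the total. Without mitochondrially encoded genes the share was 21.9%. From either library alone, 89 to 91 of the first 100 genes were shared with the mean, and the share ran from 27.1% to 30.2%. For genes at least 2-fold higher in control 1 and in control 2, a mean of at least 10 TPM left 239 and 187, an interval wholly past 2-fold 310 and 282, and no filter gave 582 and 725. The pan-epithelial median log2 ratio was −0.47 with library size alone and −0.18 over genes in no other list, where the stromal median was 0.53. The luminal and gland medians over such genes were −1.65 and −0.90. Of 23 lists with a median of at least 0.5 in size, 156 of 158 values under other settings kept their direction. The exceptions, each with a mean of at least 10 TPM, were adipocyte (0.01) and oviduct (0.37) genes. Deposited TPM put the proliferation median at 0.0052, against −0.023. Medians of other lists also changed sign. Over genes in no other list these were interleukin 6 family ligands (−1.02), complement (−0.28), secreted serine proteases (−0.095), oestrogen-responsive growth (−0.13), embryo (0.30) and B cell (0.18) genes. With a mean of at least 10 TPM they were ciliated cell (0.43), receptor tyrosine kinase (0.029), integrin (0.018), stromal target (−0.066) and oestrogen-responsive secretory (−0.0095) genes. With no filter the BMP and TGF-beta ligands stood at −0.032. Ranks of genes that differ between the controls rest on a single library: Prss29 stood at 8610 and Prss28 at 12279 without control 1. The cause of these changes was not tested.

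No paired analysis was possible because both libraries belong to the same group and no groups were compared. The number of libraries limits the precision: with 1 library on each side the spread between animals cannot be estimated, and intervals cover counting error only. A count of 0 allows up to 3 counts.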
